A study of Mus musculus with 12 samples.

Results

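The small subunit of the cytosolic ribosome carries the proteins encoded by 29 mouse genes of the 55487 genes listed in the count tables. The genes were taken by symbol, with pseudogenes left out. They lie on 14 chromosomes. All 29 passed the filter on low counts in each of the 5 comparisons below.

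RNA was sequenced from primary fibroblasts of mouse embryos at stage E13.5, in which both Htt alleles are floxed (HTTfl/fl). HTT-deleted cells had received a lentivirus encoding Cre recombinase with GFP, and control cells a lentivirus encoding a histone H2B fused to eGFP, so that every culture carried floxed alleles, a lentivirus and a green fluorescent protein. Cells were harvested 7 days after transduction, ribosomes were purified, and 1 part in 15 of the same suspension was kept for total RNA. Ribosome-associated RNA from HTT-deleted cells, ribosome-associated RNA from control cells, total RNA from HTT-deleted cells and total RNA from control cells had 3 libraries each. The labels name no selection of transduced cells, and replicates could be separate primary cultures or separate passages, so p-values measure the spread between such cultures.

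The small subunit binds the messenger RNA, scans it for the start codon and monitors the pairing of codon and anticodon. Vertebrate ribosomal protein mRNAs are short, abundant and begin with a C followed by a run of pyrimidines, the terminal oligopyrimidine or TOP tract. Through this tract their translation is raised or lowered as a group by mTOR signalling and the RNA-binding protein LARP1, and in growing cells a large part of them sits on ribosomes. Many of the genes also have processed pseudogenes, intronless copies made by reverse transcription, and the sequence that a gene shares with its copies limits which reads can be assigned to it.

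The tract is shown for the members whose annotated start has it, because it is the feature by which these mRNAs are known to be regulated together. The RefSeq table of promoters (GRCm38.p6) held 25 of the 29 members, and in 7 of them (28%) the annotated first base was a C followed by at least 4 bases that were each C or T, on the sense strand. Among 27025 genes of the table the share was 3.01%. Within 10 bases on either side of the start, such a run began in 16 members (64%) and in 34.4% of all genes. Each window below gives 10 bases before and 20 bases from the annotated start, 5′ to 3′, with the run in capitals.
Fau (chr19:6057937-6057966, plus strand): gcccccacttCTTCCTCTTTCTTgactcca
Rps10 (chr17:27635225-27635254, minus strand): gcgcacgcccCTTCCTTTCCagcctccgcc
Rps18 (chr17:33955646-33955675, minus strand): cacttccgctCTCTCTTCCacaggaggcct
Rps6 (chr4:86857348-86857377, minus strand): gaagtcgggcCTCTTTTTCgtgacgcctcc
Rps15a (chr7:118116128-118116157, minus strand): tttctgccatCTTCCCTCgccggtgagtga
Rps27 (chr3:90213629-90213658, minus strand): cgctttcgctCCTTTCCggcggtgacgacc
Rps21 (chr2:180257369-180257398, plus strand): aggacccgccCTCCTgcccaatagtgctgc
Fau had the longest of these runs, 13 bases, and Rps21 the shortest, 5 bases. In other members the run lay a few bases from the annotated start, as in the following windows, where the capitals begin 5 bases before the annotated start in Rps9 and 2 bases before it in Rps24, and 8 bases after it in Rps12.
Rps9 (chr7:3704031-3704060, plus strand): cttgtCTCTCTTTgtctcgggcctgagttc
Rps24 (chr14:24490668-24490697, plus strand): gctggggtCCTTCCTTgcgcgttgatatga
Rps12 (chr10:23787190-23787219, minus strand): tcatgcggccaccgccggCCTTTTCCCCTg
A window without a run says only that these letters are not at that annotated start, and start sites were not measured here.

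Each library held between 16789356 and 30571501 gene counts. Htt itself was at 15.5, 10.6 and 10.7 CPM (counts scaled to a common library size by TMM) in total RNA of HTT-deleted replicates 1, 2 and 3, against 58.9, 45.8 and 64.6 CPM in total RNA of control cells. In ribosome-associated RNA it was at 12.8, 5.04 and 3.98 CPM against 22.6, 20.1 and 32.0 CPM. The deletion was thus visible in each pair, and Htt RNA was not at 0. The main edgeR test of HTT-deleted against control cells called no gene in either fraction, and so not Htt. A gene not called there can still differ. The 13 fibroblast markers were detected in all libraries and made up 2.86 to 5.30% of gene counts. The 18 macrophage markers, also detected in all, made up 0.853, 0.274 and 0.371% in ribosome-associated RNA of HTT-deleted cells, 0.473, 0.111 and 0.266% in that of control cells, 0.769, 0.188 and 0.293% in total RNA of HTT-deleted cells and 0.333, 0.0785 and 0.192% in that of control cells. They were thus higher in the HTT-deleted library of each pair, and their part in the results was not tested. In such bulk libraries, fewer cells of a type and less RNA per cell cannot be told apart. Total RNA of HTT-deleted replicate 1 stood apart from the 5 other total libraries. The comparisons that use it are given with and without it, except for the authors' own fold changes.

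In total RNA of control cells, the members differed widely in level per length. Per kilobase of the transcript model, Rps12 stood highest at 1086 ± 95 CPM per kb (SD, n = 3), before Rps14 at 1065 ± 10 and Rps28 at 936 ± 40 CPM per kb. Rps12 and Rps14 did not differ beyond this spread. At the low end were Rps27l at 279 ± 31, Rps20 at 147 ± 33 and Rps10 at 11.98 ± 0.23 CPM per kb. The place of Rps20 rests on an annotated transcript of 3706 bases with a coding part of 357, and per kilobase of coding sequence it was the highest of all, at 1527 CPM per kb. The median member had 53.6% of its 50-base words in common with another gene, from 2.96% in Rps3 to 98.6% in Rps27. In 24 of 29 members the reads counted for intronless copies came to less than 5% of the gene's own in every library. The exceptions were Rps2, Rps7, Rps10, Rps18 and Rps19. Inside 8 of the members lie 14 annotated small nucleolar RNAs.

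As a group, the small subunit mRNAs held a larger share of ribosome-associated RNA than of total RNA. They took 2.03, 1.95 and 1.71% of gene counts in ribosome-associated RNA of HTT-deleted cells (replicates 1, 2 and 3), and 2.20, 1.80 and 1.90% in that of control cells. In total RNA they took 2.86, 1.14 and 1.13% in HTT-deleted cells, and 1.16, 1.18 and 1.25% in control cells. Without HTT-deleted replicate 1, the 5 total libraries spanned 1.13 to 1.25% and the 6 ribosome-associated libraries 1.71 to 2.20%, with no overlap. The ratio of large to small subunit counts was 1.47 to 1.55 in 11 libraries and 1.32 in total RNA of HTT-deleted replicate 1.

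**Figure D1:**
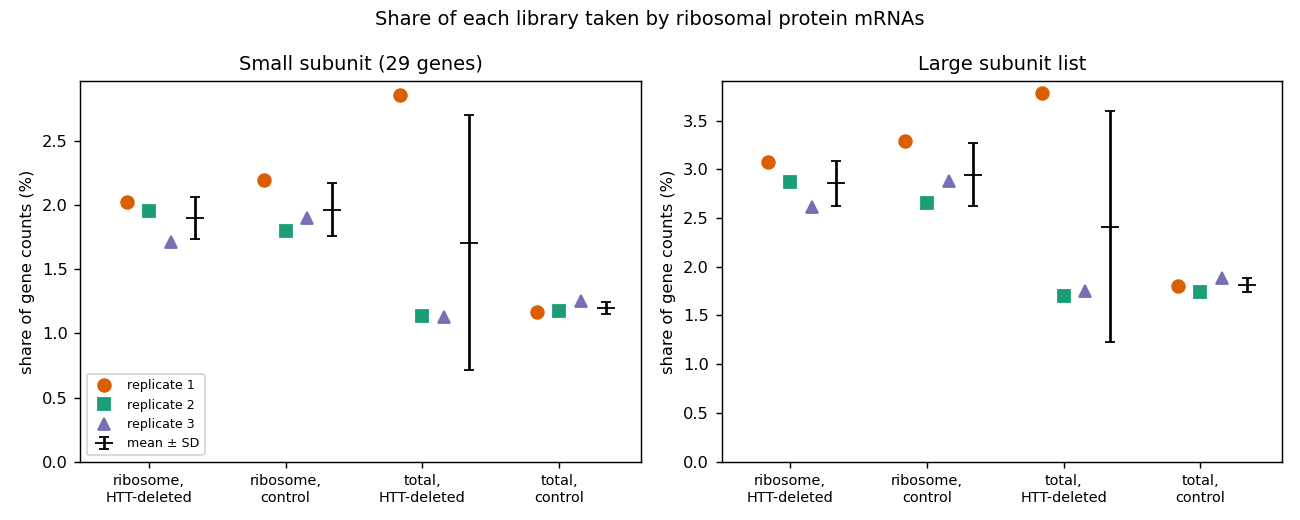
Share of gene counts (%) taken by the small subunit genes (left) and the large subunit list (right) in each library, by RNA fraction and cells, with the mean and SD of each group. Ribosome-associated libraries lie at 1.71 to 2.20% for the small subunit, total libraries at 1.13 to 1.25% except HTT-deleted replicate 1 at 2.86%.

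In control cells, ribosome-associated RNA was enriched in small subunit mRNAs over total RNA. At a Benjamini-Hochberg adjusted p under 0.05 in the quasi-likelihood test of edgeR, 26 of 29 members were higher and 1, Rps10, was lower, while over the 14990 genes tested 10% were called higher and 15% lower. Rps2 and Rps27l were not called. The median log2 fold change of the members was 0.80, a 1.74-fold difference, and the median over all genes tested was 0.02. Within the cultures the median of the members was 1.03, 0.72 and 0.69 in replicates 1, 2 and 3. The highest ratios belonged to small proteins: Rps28 and Rps29, which sit near the mRNA channel on the head of the subunit, Rps27, a zinc-binding protein, and Rps25, which some viral internal ribosome entry sites need.

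Rps28 was at 664, 469.8 and 483 CPM in ribosome-associated RNA of control cells, against 261, 241 and 258 CPM in their total RNA. Its log2 fold change was 1.08 (SE 0.15, edgeR quasi-likelihood adjusted p = 0.0048). Rps29 had 322, 265 and 226 CPM in ribosome-associated RNA of control cells and 132, 135 and 140.5 CPM in total RNA. For both genes the lowest ribosome-associated library lay far above the highest total one. Rps27 had 527, 446 and 392 CPM in ribosome-associated RNA of control cells against 239, 235 and 218 CPM in total RNA. Rps25 had 589, 477 and 478 CPM in ribosome-associated RNA of control cells against 283, 255 and 272 CPM in total RNA. The log2 fold changes of Rps29, Rps27 and Rps25 were 0.99, 0.97 and 0.92, with SE 0.13, 0.13 and 0.12. Culture 1 gave the highest ratio of the 3 in each of these 4 genes.

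Among proteins that touch the messenger RNA or its decoding, Rps14, which lines the exit of the mRNA channel, had 1345, 1106 and 1129 CPM in ribosome-associated RNA of control cells, against 636, 642 and 629 CPM in total RNA (log2 fold change 0.90, SE 0.11). Rps26, another protein of the mRNA exit channel, had 819, 671 and 711 CPM in ribosome-associated RNA of control cells and 431, 429 and 434 CPM in total RNA (0.76, SE 0.11). Rps9, whose yeast counterpart affects decoding accuracy, had 1011, 786 and 843 CPM in ribosome-associated RNA of control cells and 541, 551 and 608 CPM in total RNA. At 0.63 (SE 0.12, edgeR quasi-likelihood adjusted p = 0.0127) Rps9 was the lowest of the 26 that were called higher. Rpsa, also known as the laminin receptor precursor, had 1486, 1282 and 1396 CPM in ribosome-associated RNA of control cells and 768, 779 and 836 CPM in total RNA (0.80, SE 0.10). The groups of these 4 genes did not overlap.

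Rps6, the substrate of S6 kinase, had 698, 599 and 605 CPM in ribosome-associated RNA of control cells, against 382, 377 and 431 CPM in total RNA (log2 fold change 0.67, SE 0.10). Both members made as fusions were higher as well. Rps27a, whose precursor begins with ubiquitin, had 699, 572 and 573 CPM in ribosome-associated RNA of control cells and 341, 342 and 345 CPM in total RNA (0.84, SE 0.11). Fau, whose precursor begins with a ubiquitin-like protein, had 481, 362 and 379 CPM in ribosome-associated RNA of control cells and 239, 224 and 225 CPM in total RNA (0.82, SE 0.13). Rps12, a protein of the head of the subunit, had 1049, 882 and 841 CPM in ribosome-associated RNA of control cells and 491, 533 and 584 CPM in total RNA (0.78, SE 0.12). Each of the 3 ribosome-associated libraries was above each total one in Rps6, Rps27a, Fau and Rps12. Rps20, another protein of the head, varied more between cultures, with 1067, 739.6 and 920.3 CPM in ribosome-associated RNA of control cells and 492, 459 and 685 CPM in total RNA. Its log2 fold change of 0.74 (SE 0.20) had an adjusted p of 0.0349 by edgeR's quasi-likelihood test. Without total control replicate 1 it was 0.68 and no longer called, and likewise without ribosome-associated control replicate 1 (0.61), total control replicate 2 (0.63) or ribosome-associated control replicate 3 (0.73). Leaving out total control replicate 1 also ended the calls of Rps9 (0.61) and Rps23.

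The groups did not overlap in 27 members with ribosome-associated RNA higher and in 1 with it lower, leaving Rps2. How many of all genes were without overlap was not counted. By edgeR's quasi-likelihood test, 28 of the 29 members and 38.2% of all genes had an unadjusted p under 0.05 in this comparison. The order of the members by enrichment was only loosely related to size: the Spearman correlation across the 29 genes, which share their libraries, between coding length and the difference within a culture was -0.53, -0.34 and -0.15 in control replicates 1, 2 and 3. Short transcripts as a set were also higher in the ribosome fraction. The shortest 10% of protein-coding genes (1355 genes with transcripts of at most 1160 bases) had median differences of 0.59, 0.37 and 0.31 in the same cultures. The members had 1.03, 0.72 and 0.69. Ribosomal protein genes of that length, most members among them, were not taken out of the short set, so the sets are not separate. The part of transcript length in the result was not tested. With the replicate number as a block, which the pairing of the samples allows, 28 members were higher and 1 lower, among 24.3% and 25.9% of all genes. Scaling factors computed without any ribosomal protein gene left 26 higher and 1 lower.

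**Figure D2:**
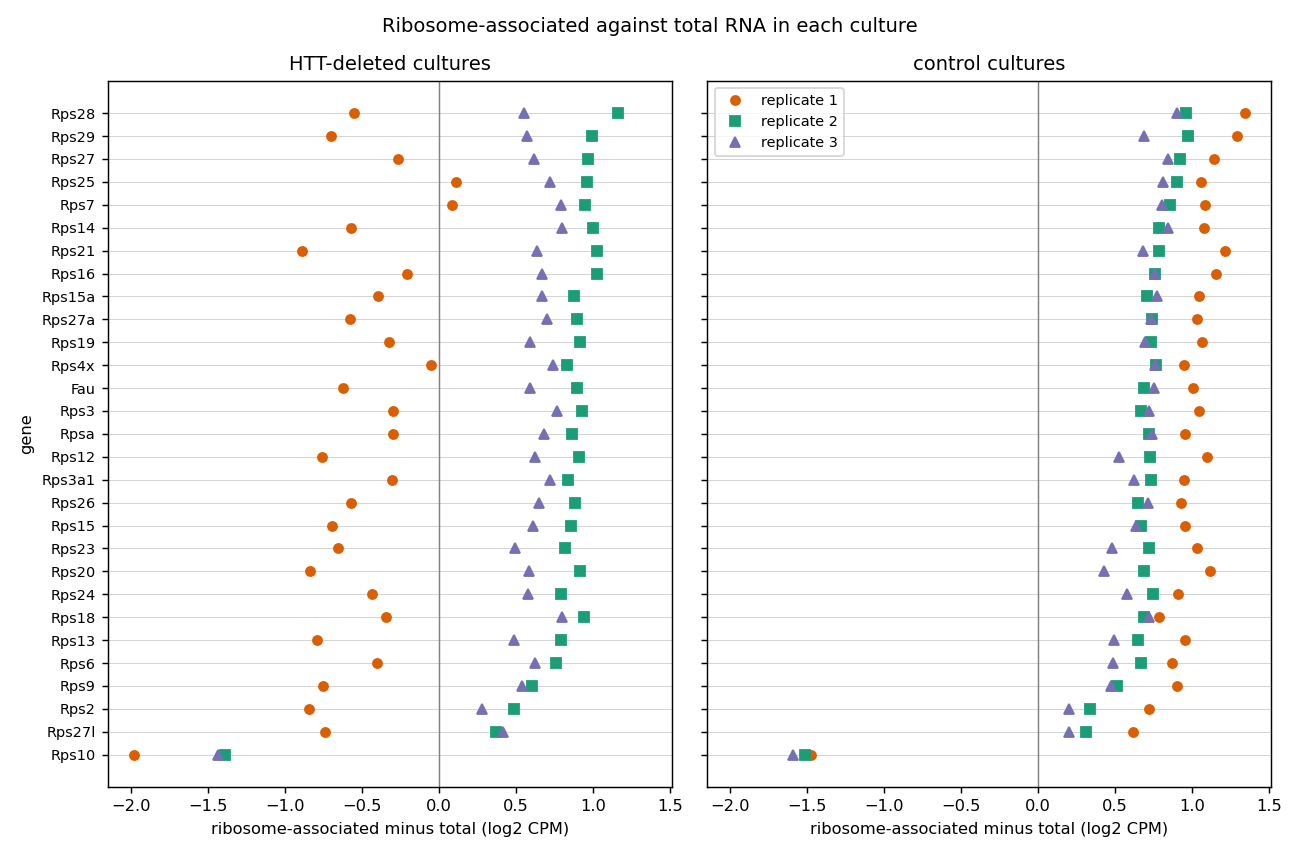
Difference in log2 CPM between ribosome-associated and total RNA of the same culture for the 29 genes, in HTT-deleted cultures (left) and control cultures (right), 1 point per culture. In control cultures 28 genes lie right of 0 and Rps10 left of it, while in HTT-deleted replicate 1 most genes lie left of 0.

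Of the related genes, the large subunit list moved as the small subunit did: 45 of 49 were higher and none lower in ribosome-associated RNA of control cells, with a median of 0.78 and Rpl26 at 1.17 (SE 0.13). Of 18 other TOP mRNAs, 13 were higher and none lower, with a median of 0.53. Among them Tpt1, the tumour protein known as TCTP, was at 0.91 (SE 0.13) and Naca, a chaperone of nascent chains, at 0.72 (SE 0.09). Factors that assemble the small subunit did not share this direction: 3 of 24 were higher and 4 lower, with a median of 0.02. Nop58, a core protein of box C/D snoRNPs, was at 0.41 (SE 0.08) and Utp20 at -0.71 (SE 0.15). Of 11 genes of the mTOR and LARP1 pathway, 3 were higher and 4 lower, Mtor at -0.74 (SE 0.12) and Larp1 at -0.58 (SE 0.08). The difference between these lists was not tested.

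Rps10, whose protein is ubiquitinated on stalled ribosomes, went the other way at a very low count. It had 2.05, 2.02 and 1.96 CPM in ribosome-associated RNA of control cells against 5.86, 5.94 and 6.09 CPM in total RNA (33 to 60 and 120 to 179 reads), a log2 fold change of -1.58 (SE 0.18, edgeR quasi-likelihood adjusted p = 0.0028). In HTT-deleted cells it had 2.16, 1.78 and 2.06 CPM in ribosome-associated RNA and 8.79, 4.80 and 5.74 CPM in total RNA (43 to 56 and 88 to 159 reads). All 6 ribosome-associated libraries were below all 6 total ones. Of the 2311 exonic bases annotated to Rps10 over all its transcripts, 475 also belong on the same strand to RPS10-NUDT3, a readthrough gene model. That model had 0 reads in every library. The Rps10 transcript used here has only 498 bases, 495 of them coding. Of its 50-base words, 92.4% occur in another gene, and RPS10-NUDT3 had the most matches. Reads counted for 2 intronless copies of Rps10 came to 36.3 to 533% of its own over the libraries, with a median of 112%. Reads over sequence shared with other genes cannot be assigned to one gene by a count per gene. The level and direction of Rps10 are therefore uncertain, and how far the shared sequence sets them was not tested.

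Rps2, which lies by the mRNA entry, differed widely between replicates, and its call between fractions depended on pairing them. In ribosome-associated RNA it had 467, 1084 and 459.7 CPM in HTT-deleted cells and 586, 1056 and 469 CPM in control cells. In total RNA it had 839, 774 and 379 CPM in HTT-deleted cells and 357, 838 and 408 CPM in control cells. Replicate 2 was the highest library of 3 of the 4 groups, and in total RNA of HTT-deleted cells replicate 1 was above it. Of the 50-base words of Rps2, 79% occur in another gene, and the most matches were in Rps2-ps10, a transcribed processed pseudogene on chromosome 18. Rps2-ps10 had 555, 150.3 and 526 CPM in ribosome-associated RNA of HTT-deleted cells and 626, 140.1 and 557 CPM in that of control cells. In total RNA Rps2-ps10 had 559, 109 and 429 CPM in HTT-deleted cells and 402, 119.7 and 396 CPM in control cells. Rps2 thus made up 87.5 to 88.3% of the reads of the pair in replicate 2 and 45.7 to 60.04% in the other replicates. The sum of both genes was 884 to 1234 CPM in replicate 2 and 759 to 1398 CPM in the others. The log2 fold change of Rps2 between the fractions of control cells was 0.38 (SE 0.43, edgeR quasi-likelihood adjusted p = 0.58). With the replicate block, which the pairing of the samples allows, Rps2 alone was called higher, at 0.41 (SE 0.09, adjusted p = 0.0024 by the same test). Within the control cultures its ribosome-associated library was above the total one by 0.72, 0.33 and 0.20 on the log2 scale, and within HTT-deleted cultures the difference was -0.85, 0.49 and 0.28. For the sum of both genes, a count added after seeing the data, the log2 fold change in control cells was 0.44 without the block (edgeR quasi-likelihood adjusted p = 0.0427). Without ribosome-associated control replicate 2 and without the block, Rps2 alone was at -0.02. Rps19, mutated in Diamond-Blackfan anaemia, had a like pattern at a lower level: the reads of Rps19-ps6 came to 1.59 to 2.16% of those of Rps19 in replicate 2 and to 6.13 to 9.62% in the others.

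**Figure D3:**
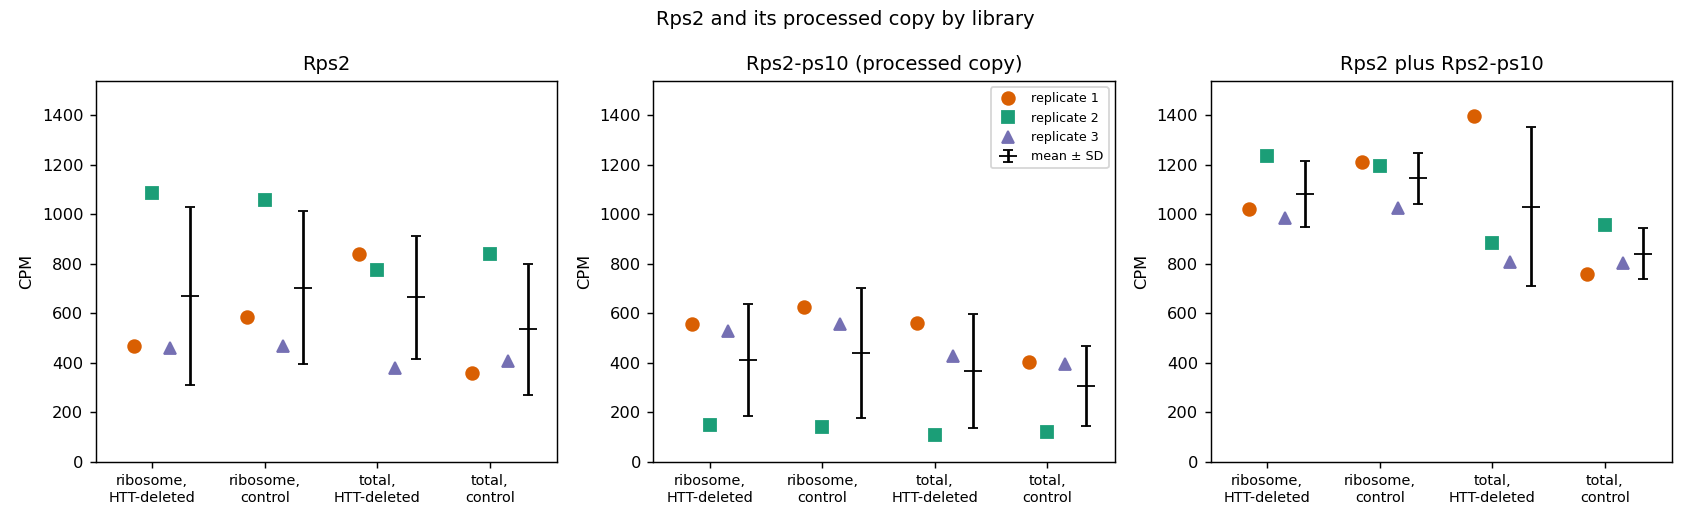
Level (CPM) of Rps2, of its processed copy Rps2-ps10 and of their sum in each library, with the mean and SD of each group. In all 4 groups replicate 2 has the lowest level of the copy, at 109 to 150.3 CPM, against 396 to 626 CPM in the other replicates.

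Rps27l is a paralog of Rps27 and, as background, a target of p53. In control cells it had 201, 160.4 and 181 CPM in ribosome-associated RNA against 131, 129 and 157 CPM in total RNA, which do not overlap, and a log2 fold change of 0.37 (SE 0.12) that missed the threshold (edgeR quasi-likelihood adjusted p = 0.062). The call was made with the replicate block (0.37, adjusted p = 0.0021), by DESeq2 (adjusted p = 0.0213), without a filter on low counts (adjusted p = 0.0331) and without ribosome-associated control replicate 2 (adjusted p = 0.0463). The coding sequences of the pair are shown because they tell whether reads of one can be counted for the other. Each has 255 bases with its stop codon, and they differ at 61 positions, shown in capitals, of which 53 are the third base of a codon.
Rps27l (GENCODE M21, GRCm38, gene at chr9:66946086-66949516, plus strand): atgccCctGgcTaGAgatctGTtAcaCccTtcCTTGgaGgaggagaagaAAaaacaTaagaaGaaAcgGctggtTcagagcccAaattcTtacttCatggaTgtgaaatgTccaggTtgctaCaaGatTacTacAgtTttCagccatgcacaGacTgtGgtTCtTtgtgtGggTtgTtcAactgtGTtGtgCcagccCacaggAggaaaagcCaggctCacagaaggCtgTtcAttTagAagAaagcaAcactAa
Rps27 (GENCODE M21, GRCm38, gene at chr3:90212522-90213651, minus strand): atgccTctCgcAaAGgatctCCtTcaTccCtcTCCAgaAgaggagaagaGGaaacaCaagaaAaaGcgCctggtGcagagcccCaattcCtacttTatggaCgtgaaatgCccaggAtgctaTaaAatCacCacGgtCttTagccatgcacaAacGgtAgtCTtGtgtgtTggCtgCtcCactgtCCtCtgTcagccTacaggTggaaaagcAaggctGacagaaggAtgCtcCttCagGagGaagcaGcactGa
They are 76.1% identical, and the longest stretch without a difference has 11 bases, so that a read of 50 bases within the coding part distinguishes them. The ratio of Rps27 to Rps27l in CPM was 2.45, 2.95 and 1.68 in ribosome-associated RNA of HTT-deleted cells and 2.63, 2.78 and 2.17 in that of control cells. In total RNA it was 1.77, 1.94 and 1.46 in HTT-deleted cells and 1.82, 1.81 and 1.39 in control cells. The ratio was higher in the ribosome fraction in each of the 6 cultures. Replicate 3 had the lowest ratio in all 4 groups. Of the 50-base words of Rps27 itself, 98.6% occur in other genes. The gene with the most matches was Rps27rt, a single-exon copy with 2.1 to 20.04 CPM.

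In HTT-deleted cells, the same comparison of fractions turned on 1 library. With all 3 replicates, edgeR's quasi-likelihood test called no member, higher or lower, while 0% of 14627 genes were called higher and 0.896% lower. The members' median was 0.17, and 1 member, Rps10, had an unadjusted p under 0.05 (log2 fold change -1.69, SE 0.31, adjusted p = 0.064), as had 12.2% of all genes. DESeq2 called Rps10 lower and no member higher, among 5.09% and 0.827% of all genes, and limma voom called no member. Within the cultures the members' median was -0.57, 0.90 and 0.62 in replicates 1, 2 and 3. Without total RNA of HTT-deleted replicate 1, 26 members were higher and 1 lower, with a median of 0.82, among 7.95% and 11.9% of 15141 genes. Rps10 was the one called lower, at -1.40 (adjusted p = 0.0159 by edgeR's quasi-likelihood test). Rps2 and Rps27l were then not called, as in control cells. In replicates 2 and 3 alone with the block, 27 were higher and 1 lower, among 27.7% and 27.9% of genes, with a median of 0.77.

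The values show where the library departs. Rps28 had 455, 511 and 381 CPM in ribosome-associated RNA of HTT-deleted cells, against 669, 228 and 260.0 CPM in their total RNA. Rps25 had 539, 496 and 418 CPM in ribosome-associated RNA of HTT-deleted cells against 501, 255 and 254 CPM in total RNA. Rps9 had 816, 816 and 775 CPM in ribosome-associated RNA of HTT-deleted cells against 1376, 538 and 534 CPM in total RNA. In each gene the first total library was far above the other total ones. The 3 ribosome-associated libraries differed less, though in Rps28 they still ran from 381 to 511 CPM. The log2 fold changes between fractions of HTT-deleted cells were 0.21 (SE 0.42) for Rps28, 0.52 (SE 0.30) for Rps25 and -0.03 (SE 0.39) for Rps9. Without that total library they were 0.88, 0.92 and 0.58.

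In total RNA, the effect of the deletion on the members followed that same library. No member was called between HTT-deleted and control cells by edgeR's quasi-likelihood test, nor by DESeq2 or limma voom, and 0% of 14759 genes were called by the first. No member had an unadjusted p under 0.05, against 44 of all genes. All 29 log2 fold changes were positive, from 0.15 to 0.78 with their median at 0.55, where the median of all genes was 0.01. Within the pairs the members' median was 1.27, -0.11 and -0.12. Each of the 29 was higher in HTT-deleted replicate 1 than in the 5 other total libraries, by 1.499-fold (Rps10) to 3.23-fold (Rps21) of their median. Of them, 24 were also higher there than in the 11 other libraries of either fraction. For Rps2 the margin over total control replicate 2 was small, 839 against 838 CPM. How many of all genes were highest in this library was not counted.

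Rps12 had 1559.6, 493 and 479 CPM in total RNA of HTT-deleted cells against 491, 533 and 584 CPM in that of control cells. Rpsa had 1832, 749.9 and 809 CPM in total RNA of HTT-deleted cells against 768, 779 and 836 CPM in that of control cells. The log2 fold changes were 0.71 (SE 0.50) for Rps12 and 0.56 (SE 0.38) for Rpsa, both with an edgeR quasi-likelihood adjusted p of 0.98. In replicates 2 and 3 both genes were below their control. Rps28, with 669, 228 and 260.0 CPM in total RNA of HTT-deleted cells, against 261, 241 and 258 CPM in control cells, was at 0.65 (SE 0.43). Rps27l had 283, 116 and 146 CPM in total RNA of HTT-deleted cells against 131, 129 and 157 CPM in control cells (0.43, SE 0.35). The groups of these genes overlap.

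A high first library was also seen in total RNA of HTT-deleted cells in 8 more genes given by library. Rps14 had 1845, 565 and 602 CPM and Rps20 had 1465, 418 and 506 CPM there. Rps27a had 983, 317 and 317 CPM and Fau 637, 207 and 220.2 CPM. Rps6 had 826, 360.3 and 364 CPM, Rps26 1066, 386 and 427 CPM. In all 6 the first library was more than 2 times the others. Rps29 had 358, 135 and 116 CPM and Rps27 had 501, 226 and 213 CPM in these libraries.

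Without total RNA of HTT-deleted replicate 1, the members' median was -0.10 with 1 of 29 above 0, and no member was called. In replicates 2 and 3 with the block it was -0.12 with all 29 below 0, none called and 6 at an unadjusted p under 0.05, while 0.629% of all genes were called and 9.47% had an unadjusted p under 0.05. With the block over all pairs it was 0.36 with none called. Short transcripts, a set that holds most members, were also higher in that library. The shortest 10% of protein-coding genes had medians of 0.86, -0.05 and -0.07 in pairs 1, 2 and 3, while all 13529 protein-coding genes had -0.09, -0.01 and -0.01. The large subunit list had 1.09, -0.09 and -0.12. Reads of 112 pseudogenes of small subunit genes, Rps2-ps10 left out, came to 167 CPM, here without TMM scaling, in that library and to 41.6 to 64.6 in the 5 other total libraries, and ribosome-associated control replicate 1 had the most of all 12 libraries at 183. Fibroblast markers were lowest in the same total library, at 2.86% of gene counts. The part of these values in the result was not tested.

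**Figure D4:**
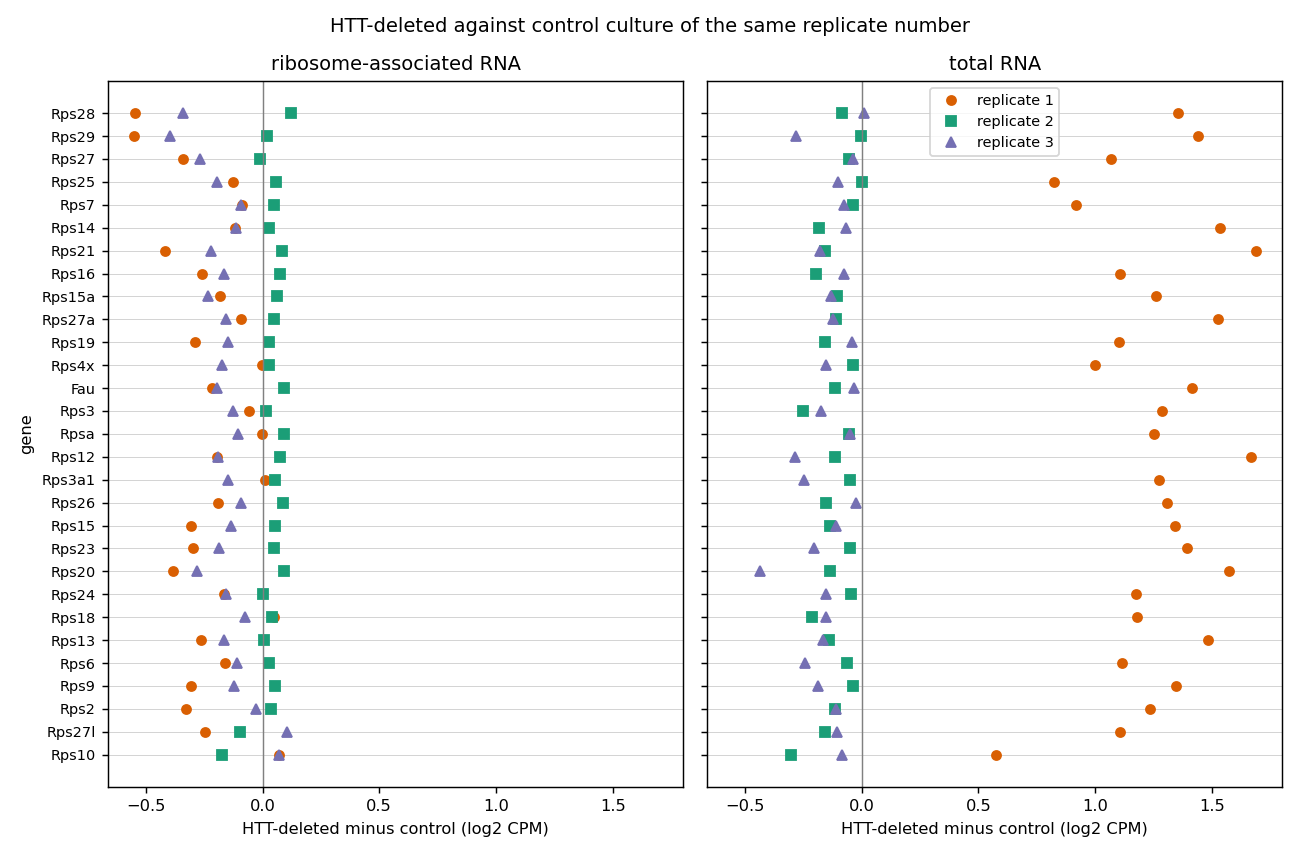
Difference in log2 CPM between HTT-deleted and control cells of the same replicate number for the 29 genes, in ribosome-associated RNA (left) and total RNA (right), 1 point per pair. In total RNA all points of replicate 1 lie between 0.58 and 1.69, and those of replicates 2 and 3 between -0.44 and 0.01.

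In ribosome-associated RNA no change of the small subunit mRNAs between HTT-deleted and control cells was detected, and an absence of change was not tested. No member was called by edgeR's quasi-likelihood test, DESeq2 or limma voom, where 0% of 14588 genes were called by the first and 110 had an unadjusted p under 0.05, none of them a member. The median log2 fold change was -0.10, from -0.29 to 0.01, with 28 of 29 below 0. Within pairs the median was -0.19, 0.05 and -0.15, so that pair 2 went the other way. With the replicate block 1.69% of all genes were called and no member, and 3 members had an unadjusted p under 0.05: Rps29, Rps28 and Rps27. That is near the share of all genes, of which 10.1% had such a p. Without ribosome-associated control replicate 1 the members' median was 0.01, with 18 of 29 above 0.

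The members with the lowest log2 fold change in ribosome-associated RNA were Rps29, Rps28, Rps20 and Rps27. Rps29 had 219.8, 268 and 172 CPM in ribosome-associated RNA of HTT-deleted cells, against 322, 265 and 226 CPM in that of control cells, a log2 fold change of -0.29 (SE 0.19). Rps28 had 455, 511 and 381 CPM in ribosome-associated RNA of HTT-deleted cells against 664, 469.8 and 483 CPM in control cells (-0.26, SE 0.17). Rps27 had 416, 443 and 326 CPM in ribosome-associated RNA of HTT-deleted cells against 527, 446 and 392 CPM in control cells (-0.20, SE 0.16). The groups of all 3 genes overlap, and HTT-deleted replicate 2 lay above 1 or more control libraries in each. Rps20, with 818, 789 and 758 CPM in ribosome-associated RNA of HTT-deleted cells and 1067, 739.6 and 920.3 CPM in control cells, was also at -0.20 (SE 0.15). The Spearman correlation across the 29 members between coding length and the difference within a pair was 0.62, -0.18 and 0.59 in pairs 1, 2 and 3. Rps27l, also among the short members, went against this order in pair 3, where it was the highest.

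The other members given by library lay nearer to 0. Rpsa had 1485, 1367 and 1296 CPM in ribosome-associated RNA of HTT-deleted cells and Rps14 had 1238, 1129 and 1044 CPM. Rps12 had 918, 928 and 738 CPM and Rps26 had 718, 712 and 667 CPM in the same libraries. Rps27a had 657, 592 and 514 CPM, Rps6 624, 611 and 559.8 CPM, and Fau 413, 386 and 331 CPM. Each of these 7 genes overlapped with its ribosome-associated control libraries. Rps27l had 169, 150.1 and 194 CPM and was highest in replicate 3.

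The interaction term over all 12 libraries asks whether the difference between the fractions itself differed between HTT-deleted and control cells. No member was called by edgeR's quasi-likelihood test, DESeq2 or limma voom, 0% of 15574 genes were called by the first, and no member had an unadjusted p under 0.05. The median was -0.61 with 29 of 29 below 0, and Rps28 was at -0.87 (SE 0.48) and Rps29 at -0.88 (SE 0.51). Without total RNA of HTT-deleted replicate 1 the median was 0.01 with 19 above 0, Rps28 at -0.20 and Rps29 at -0.17. In replicates 2 and 3 with the cultures as a block it was 0.07 with 25 above 0 and none called.

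The authors' deposited table, whose name speaks of RUVSeq with 2 factors of unwanted variation, differs in its calls. By the authors' deposited table, 11 members were higher in total RNA of HTT-deleted cells at a false discovery rate under 0.05 and none lower, where 2.29% of its 16974 genes were higher. Those 11 were Fau, Rps21, Rps28, Rps27a, Rps14, Rps23, Rps26, Rpsa, Rps15, Rps13 and Rps29. All 29 had a log2 fold change above 0 in the authors' deposited table, with a median of 0.37 and Rps21 highest at 0.49. In ribosome-associated RNA no member passed in the authors' deposited table, where 3.12% of 16235 genes were higher, and the lowest rate among members was 0.18, for Rps29. These fits were not repeated without total RNA of HTT-deleted replicate 1.

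Relative to one another most members kept their place. When each level was set against the median member of its library, the SD over the 12 libraries was at most 0.26 on the log2 scale in 27 members, with a median of 0.12 over all 29 and a lowest value of 0.05 in Rps3a1. The exceptions were Rps10 at 1.13 and Rps2 at 0.59. Rps27l followed at 0.26 and Rps20 at 0.21. Over the 11 libraries without total RNA of HTT-deleted replicate 1 the median SD was 0.08, with Rps10 at 1.17, Rps2 at 0.61, Rps27l at 0.27 and Rps20 at 0.19. In total RNA of HTT-deleted replicate 1 the members were not shifted evenly: within pair 1 the difference ran from 0.58 in Rps10 to 1.69 in Rps21, and its Spearman correlation with coding length across the 29 members was -0.28.

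**Figure D5:**
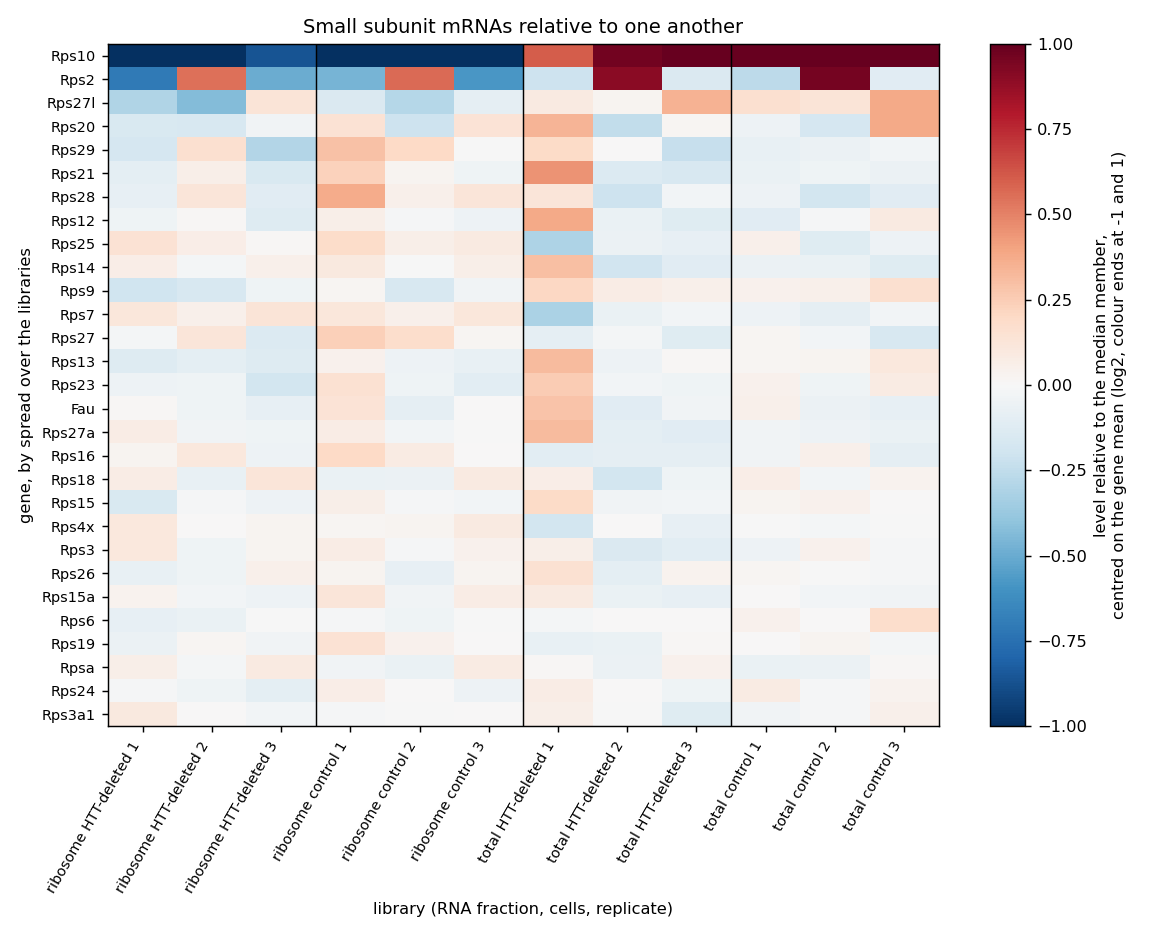
Level of each of the 29 genes relative to the median member of the same library, centred on the gene's mean (log2, colours end at -1 and 1), with libraries in columns and genes ordered by spread. Rps10 splits by fraction, Rps2 by replicate 2, and the other rows are pale.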

How the data were processed

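Reads were aligned to GRCm38 (mm10) with STAR 2.7.2b and assigned to genes with HTSeq 0.11.1, per the submitters' processing notes. What the authors deposited for each library is the raw count of every Ensembl gene. The sources used here do not give the release of the annotation or how strand was handled in counting. A second table deposited by the authors holds their log2 fold changes, a likelihood ratio score, and p-values with false discovery rates (FDR) for HTT-deleted against control cells in each fraction; its method is known here only from its name.

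Entries of the count files that name no gene entered neither library sizes nor tests. Reads in no feature came to 6.94 to 7.73% in total RNA libraries and 2.64 to 3.3% in ribosome-associated ones. Ambiguous reads came to 2.09 to 2.68%. Reads without a unique alignment came to 3.9 to 5.25% of all entries, highest in total RNA of HTT-deleted replicate 1. Counts were filtered with filterByExpr, scaled by TMM and tested over all genes with edgeR 4.0.16 in R 4.3.3, by the robust quasi-likelihood test without a block, at a Benjamini-Hochberg adjusted p under 0.05. Each SE is the estimate over the root of its F value. Differences within a culture or pair are of log2 CPM with a prior count of 2. The fits were tested on simulated data. Alternatives were RLE scaling, TMM without ribosomal protein genes, no filter, DESeq2 1.42.0, limma 3.58.1 voom, the replicate block, replicates 2 and 3 alone with the block, each library left out, and Rps2 counted together with Rps2-ps10, which was added after seeing the data.

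Replicate numbers were taken as pairing the samples, since total and ribosome-associated RNA came from the same suspension per the labels' protocols and libraries of the same number shared their deviations from the group mean, their correlation over genes being 0.227 to 0.576 in total RNA, 0.525 to 0.703 in ribosome-associated RNA, and 0.347 to 0.737 between fractions. Replicates differed far beyond sampling noise (chi-square over degrees of freedom at least 32.1), so none was merged. Counting error is small at this depth for all members but Rps10.

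The members and lists were chosen with earlier results of these data known, and replicate 1 was left out in an alternative because its total HTT-deleted library was known to stand apart. Members given by library were any called between HTT-deleted and control cells, the 4 highest and 4 lowest between fractions in control cells, the 3 highest and 3 lowest per kilobase in total RNA of control cells, and Rps27, Rps27l, Rps27a, Fau, Rpsa, Rps6 and Rps26 for what they are. Of other lists at most 3 genes with the smallest p were named. Coordinates and transcript models come from GENCODE M21 and start windows from RefSeq.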

Additional observations from a re-analysis of the deposited data

How the results depend on the processing

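The members' medians that use total RNA of HTT-deleted cells depended on replicate 1 of that group. In replicates 2 and 3 with the replicate block, HTT-deleted against control in total RNA gave a members' median of -0.12, with Rps12 at -0.19, Rps28 at -0.030, Rps27l at -0.12, Rps10 at -0.18, Rps2 at -0.10 and Rpsa at -0.044. The interaction gave a median of 0.073 there, with Rps10 at 0.14 and Rps2 at 0.11, and the comparison in ribosome-associated RNA put Rps2 at 0.0078. The fractions of HTT-deleted cells gave 27 members higher and 1 lower, among 27.7% and 27.9% of all genes, with Rps9 at 0.56. Over all pairs the block, which follows the pairing of the samples, gave medians of 0.36 in total RNA, -0.10 in ribosome-associated RNA, -0.44 for the interaction and 0.32 and 0.80 for the fractions of HTT-deleted and control cells. It changed no member call other than those of Rps2 and Rps27l in control cells. For the fractions of HTT-deleted cells it put Rps9 at 0.12 and Rps2 at -0.032, limma voom gave 0.12 and -0.038, and DESeq2 called 1 member lower, among 5.09% of all genes. With each library left out, the median ran from -0.10 to 0.78 in total RNA (Rps12 -0.13 to 1.00, Rps28 -0.047 to 0.92, Rps27l -0.077 to 0.67, Rps10 -0.17 to 0.33, Rpsa -0.017 to 0.78). It ran from -0.15 to 0.014 in ribosome-associated RNA (Rps2 -0.59 to 0.35) and from -0.85 to 0.015 for the interaction (Rps10 -0.29 to 0.19, Rps2 -0.92 to 0.041). For the fractions of HTT-deleted cells it ran from -0.072 to 0.82, with 0 to 26 members higher and 0 to 1 lower (Rps28 -0.050 to 0.88, Rps9 -0.27 to 0.58, Rps2 -0.52 to 0.22). The 26 higher and 1 lower came without total RNA of HTT-deleted replicate 1, among 7.95% and 11.9% of all genes. In control cells 23 to 27 members were higher, the median ran from 0.71 to 0.86, and Rps2 ran from -0.020 to 0.88. The number of all genes called higher there also changed, from 1499 of 14990 with all libraries to 978 of 15628 without ribosome-associated control replicate 1. RLE scaling, scaling without ribosomal protein genes and no filter turned the sign of no value listed here. Depth limits Rps10, and reads over sequence shared with other genes limit Rps2 and Rps10.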
